A study of Mus musculus with 7 samples.

Results

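The genes described here encode the contractile actin cytoskeleton and its bundling partners. They are 10 genes, Acta2, Actg2, Myl9, Tagln, Cnn1, Cnn2, Tpm1, Tpm2, Cald1 and Fscn1, of the 18193 genes that the arrays read with probe sets of 1 gene symbol. They were listed by name, with earlier results of these data known, and every probe set annotated to one of them was taken, which gave 25 of the 45037 non-control probe sets. The question of the comparisons is how the levels of these genes differ between fibroblasts, the hepatic stem cell-like cells made from them and hepatocytes. All samples were labelled C57BL/6 (C57BL/6J in the methods), and RNA was measured on 7 Affymetrix mouse genome arrays. The iHepSCs (induced hepatic stem cells, 2 arrays) had been converted from mouse embryonic fibroblasts by lentiviral Oct4 and Hnf4α, picked as colonies and grown in a hepatocyte medium (HEP medium) on collagen. Replicate 1 was at passage 3 (P3) and replicate 2 at passage 20 (P20). Several iHepSC clones were made, of which iHepSC-C3 was characterised in depth. The clone on the arrays is not stated outright, and the spread between clones was not measured. The pHep sample (1 array) was primary hepatocytes of 6-week-old mice, isolated by collagenase perfusion. The labels put them in HEP medium, whereas the methods describe a few hours on collagen in Williams' medium E. The MEFs (mouse embryonic fibroblasts, 4 arrays) carried no factors and were grown in fibroblast medium, so that medium and substrate cannot be told apart from cell type. The replicates are not said to be separate cultures, and p-values measure only the spread between these arrays, which may be technical. In iHepSCs that spread also holds the difference between P3 and P20, and leaving out 1 iHepSC replicate leaves 1 passage.

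Smooth muscle cells and activated fibroblasts contract by sliding myosin along actin filaments. Acta2 and Actg2 encode the smooth muscle actins, and Myl9 encodes the regulatory light chain whose phosphorylation turns on smooth muscle myosin. Tropomyosins (Tpm1, Tpm2) lie along the filament, and caldesmon (Cald1) and calponins (Cnn1, Cnn2) bind it and restrain the myosin. Transgelin (Tagln, also called SM22α) binds and gathers actin filaments, and fascin (Fscn1) packs them into the tight bundles of filopodia. In fibroblasts these proteins build stress fibres, whereas hepatocytes keep most of their actin under the membrane and around the bile canaliculi. Many smooth muscle genes carry a CArG box near their start, the element that serum response factor (SRF) binds.

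Upstream sequences are shown for Myl9, Cnn2 and Acta2, because the first pair held an exact CArG box and Acta2 is the classical smooth muscle marker. Each run is the 250 bases before the gene's start in the RefSeq annotation of GRCm38.p6, written 5′ to 3′ on the gene's strand, and the capitals mark the first match found.
Myl9, chr2:156775214-156775463 (+): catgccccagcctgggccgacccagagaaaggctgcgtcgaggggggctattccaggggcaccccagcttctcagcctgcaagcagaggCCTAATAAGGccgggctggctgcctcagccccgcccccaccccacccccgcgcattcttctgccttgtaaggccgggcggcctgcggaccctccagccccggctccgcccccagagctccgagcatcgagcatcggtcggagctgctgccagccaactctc
Cnn2, chr10:79988350-79988599 (+): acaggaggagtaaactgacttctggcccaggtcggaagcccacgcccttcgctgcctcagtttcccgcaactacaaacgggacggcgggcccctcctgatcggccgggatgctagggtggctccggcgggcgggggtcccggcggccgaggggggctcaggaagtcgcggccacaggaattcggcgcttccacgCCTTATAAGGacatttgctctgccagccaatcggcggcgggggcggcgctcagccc
Acta2, chr19:34255374-34255623 (−): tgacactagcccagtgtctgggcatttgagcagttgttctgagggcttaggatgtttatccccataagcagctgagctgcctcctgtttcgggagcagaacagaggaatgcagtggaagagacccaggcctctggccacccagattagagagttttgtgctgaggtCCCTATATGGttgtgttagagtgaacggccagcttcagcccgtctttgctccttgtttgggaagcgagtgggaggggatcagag
The Myl9 match lies 161 to 152 bases before the start and the Cnn2 match 56 to 47 bases before it. The Acta2 match, 84 to 75 bases before the start, departs from the motif by 1 letter. The motif (10 letters) was sought on both strands in windows of 250 bases before and 50 after the start. Such windows were at hand for 8 of the 10 genes, not for Actg2 and Tagln. An exact match stood in the windows of 2 genes and a match with at most 1 departure in those of 5, whereas 1.63% of all 32851 windows held an exact match and 21.1% held one or the other. A match is a description of the letters and no measure of binding.

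The contractile genes were far lower in iHepSCs than in MEF, and the pHep array lay between the 2 groups for most of them. Taking for each gene its brightest probe set (highest mean level), all 10 passed the test as lower in iHepSCs than in MEF (limma, adjusted p under 0.05 over all 45037 probe sets), with a median log2 difference of -7.16. Since the genes were listed with earlier results known, this count is a description. A difference of 1 on the log2 scale is 2-fold. Over all genes, 12.5% were called lower and the median difference was 0.01. On the pHep array 9 of the 10 were lower than in MEF, against 15.2% of all genes, with a median of -2.71. Between iHepSCs and pHep, 8 of the 10 were lower in iHepSCs, against 7.77% of all genes, with a median of -3.45. In the 3 comparisons 0 of the 10 were called higher, against 17.0%, 14.6% and 9.15% of all genes. The comparisons of iHepSCs and of pHep with MEF use the same MEF arrays.

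**Figure D1:**
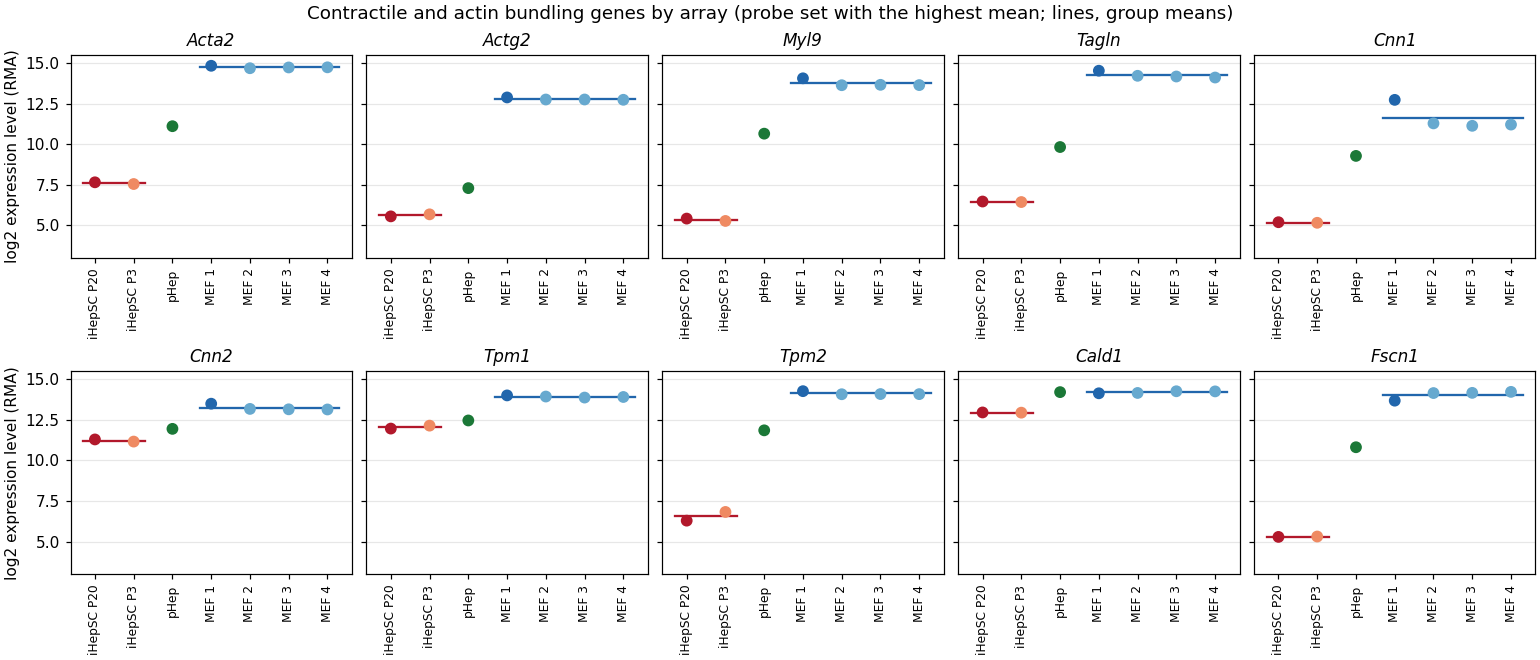
Log2 expression level (y axis) of the 10 genes on each array (x axis), each gene read by its brightest probe set, with red and blue lines for the iHepSC and MEF means and a darker blue point for MEF replicate 1. Both iHepSC points lie below all 4 MEF points in each panel, and Cald1 is the panel in which pHep (14.22) lies within the MEF range.

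Counted over all 25 probe sets, 21 were lower in iHepSCs than in MEF, 0 were higher and 4 were not called. Of all probe sets, 9.76% were lower and 13.0% higher. Both iHepSC arrays lay below all 4 MEF arrays for 23 of the 25, against 21.1% of all probe sets. On pHep, 18 were lower than in MEF, 2 were higher and 5 were not called, against 12.3% lower and 15.4% higher over all probe sets. Both that were higher belong to Cald1. The pHep array lay below all MEF arrays for 19 of the 25 and above all of them for 2, as it did for 42.6% and 28.4% of all probe sets. Between iHepSCs and pHep, 14 were lower in iHepSCs, 0 were higher and 11 were not called (9.13% and 6.48% of all probe sets). Both iHepSC arrays lay below the pHep array for 18 of the 25, against 32.8% of all probe sets. Median log2 differences over the 25 were -2.57, -2.28 and -1.68 in these 3 comparisons. Several genes have further probe sets that read low on every array.

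With 1 array, pHep has no spread of its own, and its tests borrow that of the iHepSC and MEF arrays. Leaving out a MEF array keeps every difference between iHepSCs and pHep, and leaving out an iHepSC array keeps every one between pHep and MEF. Calls in those comparisons then change only through the shared spread and the adjustment. RMA values carry no detection call. Array medians lay between 6.28 and 6.33, and levels near or below them may hold background signal, so that a difference against such a level may understate the change.

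The smooth muscle actins showed the drop in full. Acta2 (probe set 1416454_s_at) had log2 levels of 7.64 at P20 and 7.54 at P3 in iHepSCs, 11.10 in pHep, and 14.83, 14.68, 14.73 and 14.73 in MEF replicates 1 to 4. The 3 kinds of cell did not overlap. iHepSCs differed from MEF by -7.15 on the log2 scale (standard error 0.09, adjusted p = 1.01e-06), and pHep differed from MEF by -3.64 (standard error 0.12, adjusted p = 1.62e-05). iHepSCs were also below pHep, by -3.51 (adjusted p = 3.88e-05). Actg2, the actin of visceral smooth muscle, stood at 5.54 and 5.67 in iHepSCs, 7.28 in pHep and 12.88, 12.75, 12.75 and 12.73 in MEF. Its iHepSC level lay below the array median. The difference from MEF was -7.17 for iHepSCs (standard error 0.09, adjusted p = 1.01e-06) and -5.49 for pHep (standard error 0.12, adjusted p = 6.65e-06), the largest pHep difference among the 10 genes by their brightest probe sets. iHepSCs differed from pHep by -1.68 (adjusted p = 0.000617), a call lost after centring each array on its Gapdh control probe sets (-1.22, adjusted p = 0.0513).

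The other Acta2 probe sets also fell against MEF but did not separate iHepSCs from pHep. Probe set 1444105_at had levels of 4.40 and 4.51 in iHepSCs, 4.49 in pHep and 10.21, 8.52, 8.34 and 8.39 in MEF, where replicate 1 stood apart from the rest. The difference from MEF was -4.41 for iHepSCs (adjusted p = 0.00261) and -4.37 for pHep (adjusted p = 0.00690). Between iHepSCs and pHep it was -0.04 with a 95% interval of -1.96 to 1.88. Probe set 1456658_at had levels of 4.31 to 4.50 in iHepSCs, 4.33 in pHep and 5.57 to 6.50 in MEF. It was lower in iHepSCs by -1.73 (adjusted p = 0.00681), a call lost without iHepSC replicate 1 (adjusted p = 0.0709) or 2 (adjusted p = 0.0571). A suffix _s_at marks a probe set that may read more than 1 transcript. Without such probe sets the Acta2 difference between iHepSCs and pHep is the -0.04 of 1444105_at. On both of these dimmer probe sets iHepSC and pHep levels lay below the array medians, where background signal may hide a difference.

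Myl9, the myosin regulatory light chain, lay far apart in the 3 kinds of cell. Its log2 levels were 5.40 and 5.26 in iHepSCs, 10.64 in pHep and 14.06, 13.63, 13.66 and 13.64 in MEF. The iHepSC arrays were under the array median, whereas pHep was well above it. iHepSCs differed from MEF by -8.41 (standard error 0.15, adjusted p = 1.64e-06), from pHep by -5.31 (adjusted p = 5.23e-05), and pHep differed from MEF by -3.10 (standard error 0.20, adjusted p = 0.000174).

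Tagln, an early marker of smooth muscle, had levels of 6.46 and 6.42 in iHepSCs, 9.82 in pHep and 14.53, 14.21, 14.17 and 14.11 in MEF. The groups did not overlap, and the iHepSC arrays agreed within 0.03. The difference from MEF was -7.81 for iHepSCs (standard error 0.14, adjusted p = 1.48e-06) and -4.43 for pHep (standard error 0.18, adjusted p = 3.40e-05), and iHepSCs lay below pHep by -3.38 (adjusted p = 0.000190).

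The calponins differed between themselves. Cnn1, the calponin of differentiated smooth muscle, had levels of 5.18 and 5.14 in iHepSCs, 9.27 in pHep and 12.73, 11.28, 11.13 and 11.20 in MEF. MEF replicate 1 was the highest of the MEF arrays by more than 1. iHepSCs were below MEF by -6.42 (standard error 0.47, adjusted p = 0.000270), a call that held in all alternatives that were run. pHep differed from MEF by -2.31 (standard error 0.61, adjusted p = 0.0368). This call was lost without MEF replicate 2 (adjusted p = 0.0688), 3 (adjusted p = 0.0592) or 4 (adjusted p = 0.0641) and without either iHepSC replicate (adjusted p = 0.0803 for both). The difference between iHepSCs and pHep, -4.11 (adjusted p = 0.0101), was likewise lost without iHepSC replicate 1 (adjusted p = 0.0618) or 2 (adjusted p = 0.0578).

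Cnn2, a calponin of many non-muscle cells, stayed well expressed in every group. It was at 11.30 and 11.17 in iHepSCs, 11.95 in pHep and 13.50, 13.18, 13.16 and 13.15 in MEF. The order of the groups was that of Cnn1 with smaller gaps. iHepSCs were below MEF by -2.02 (standard error 0.13, adjusted p = 0.000182) and pHep by -1.30 (standard error 0.17, adjusted p = 0.00320). iHepSCs and pHep differed by -0.72, which did not pass (adjusted p = 0.0559). The same difference passed without MEF replicate 1 (adjusted p = 0.00235), which has no part in it beyond the shared spread.

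The 2 tropomyosin genes differed in how far they dropped. Tpm2, the β-tropomyosin gene, had levels of 6.29 and 6.83 in iHepSCs by probe set 1419738_a_at, 11.86 in pHep and 14.28, 14.09, 14.10 and 14.09 in MEF. iHepSCs were below MEF by -7.58 (standard error 0.16, adjusted p = 2.56e-06) and below pHep by -5.30 (adjusted p = 6.53e-05), and pHep was below MEF by -2.28 (standard error 0.21, adjusted p = 0.000789). Probe set 1425028_a_at gave 5.69 and 5.79 in iHepSCs, 11.26 in pHep and 13.50 to 13.89 in MEF, with differences of -7.88, -2.36 and -5.52 in the same 3 comparisons (iHepSCs against MEF, pHep against MEF, iHepSCs against pHep). Probe set 1449577_x_at, whose suffix marks probes that may bind other transcripts, gave -6.53, -3.58 and -2.94, of which the last was just lost without iHepSC replicate 2 (adjusted p = 0.0510). The dim probe set 1419739_at, between 5.89 and 7.13 on all arrays, was lower than in MEF by -1.10 in iHepSCs (adjusted p = 0.00271) and by -0.86 in pHep (adjusted p = 0.0174).

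Tpm1, the α-tropomyosin gene, remained high in iHepSCs. By probe set 1423721_at it was at 11.97 and 12.15 in iHepSCs, 12.47 in pHep and 14.01, 13.95, 13.88 and 13.92 in MEF. The difference from MEF was -1.88 for iHepSCs (standard error 0.10, adjusted p = 6.41e-05) and -1.47 for pHep (standard error 0.13, adjusted p = 0.000547). iHepSCs and pHep differed by -0.41 (95% interval -0.75 to -0.07, adjusted p = 0.111). The same difference passed without MEF replicate 1 (adjusted p = 0.0354), and it turned to 0.05 after centring on Gapdh. Tpm1 makes many isoforms from 1 gene, and its probe sets differed. Probe set 1423049_a_at was at 11.03 and 11.33 in iHepSCs, 10.92 in pHep and 13.41 to 14.05 in MEF, with differences from MEF of -2.68 in iHepSCs (adjusted p = 0.000386) and -2.94 in pHep (adjusted p = 0.000801). Probe set 1456623_at was at 6.72 and 7.19 in iHepSCs, 8.66 in pHep and 8.30 to 8.99 in MEF, so that pHep lay within the MEF range while iHepSCs were below it by -1.79 (adjusted p = 0.00302). It was also lower in iHepSCs than in pHep, by -1.71 (adjusted p = 0.0194, and 0.0902 without iHepSC replicate 2). The fourth probe set, 1447713_at, read between 3.98 and 4.79 on all arrays. Its call in pHep (-0.62, adjusted p = 0.0476) was lost without any 1 of MEF replicates 2 to 4 (adjusted p = 0.0565, 0.0993 and 0.0655) or of the iHepSC replicates (adjusted p = 0.0928 for both).

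**Figure D2:**
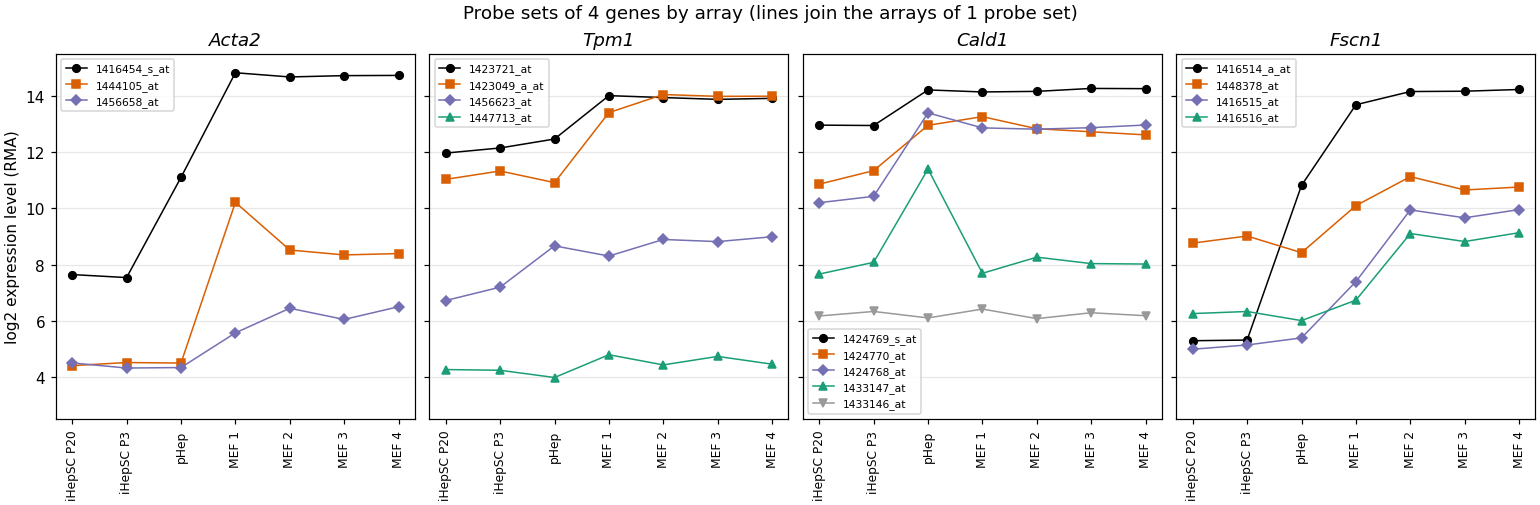
Log2 level (y axis) of every probe set of Acta2, Tpm1, Cald1 and Fscn1 on each array (x axis), with a line joining the arrays of 1 probe set. In the Cald1 panel probe set 1433147_at peaks on pHep at 11.40, and in the Fscn1 panel probe set 1416514_a_at separates iHepSCs from pHep while the others do not.

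Cald1 departed from the other genes on pHep. By probe set 1424769_s_at it was at 12.96 and 12.95 in iHepSCs, 14.22 in pHep and 14.15, 14.17, 14.27 and 14.26 in MEF. iHepSCs were below MEF by -1.25 (standard error 0.09, adjusted p = 0.000227) and below pHep by -1.26 (adjusted p = 0.00145, and 0.126 after centring on Gapdh). pHep and MEF differed by 0.01, with a 95% interval of -0.27 to 0.28. Probe set 1424770_at had the same order, at 10.86 and 11.34 in iHepSCs, 12.96 in pHep and 12.62 to 13.26 in MEF, with differences of -1.76 between iHepSCs and MEF (adjusted p = 0.00272) and -1.86 between iHepSCs and pHep (adjusted p = 0.0122, and 0.0603 without iHepSC replicate 2).

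Other Cald1 probe sets read higher on pHep than in MEF. Probe set 1433147_at was at 7.66 and 8.08 in iHepSCs, 11.40 in pHep and 7.69, 8.26, 8.03 and 8.02 in MEF. iHepSCs and MEF overlapped, and pHep alone was high, by 3.40 over MEF (standard error 0.25, adjusted p = 0.000309). This call held without any 1 of the MEF and iHepSC arrays. Probe set 1424768_at was at 10.20 and 10.43 in iHepSCs, 13.40 in pHep and 12.82 to 12.97 in MEF. Its difference between iHepSCs and MEF was -2.57 (adjusted p = 2.43e-05) and that between iHepSCs and pHep was -3.09 (adjusted p = 8.68e-05). The difference of 0.52 between pHep and MEF (adjusted p = 0.0345) was lost without MEF replicate 2 (adjusted p = 0.0791), 3 (adjusted p = 0.0800) or 4 (adjusted p = 0.0581). The last, 1433146_at, was between 6.07 and 6.41 on all arrays and was called in no comparison. Caldesmon has a long smooth muscle form and a shorter form of other cells, and the files do not say which form each probe set reads.

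Fscn1, the filopodial bundler, had the largest difference between iHepSCs and MEF among the brightest probe sets of the 10 genes. By that probe set, 1416514_a_at, it was at 5.29 and 5.31 in iHepSCs, 10.82 in pHep and 13.69, 14.16, 14.17 and 14.23 in MEF. iHepSCs differed from MEF by -8.77 (standard error 0.17, adjusted p = 1.91e-06) and from pHep by -5.52 (adjusted p = 6.54e-05), and pHep differed from MEF by -3.25 (standard error 0.22, adjusted p = 0.000232). Its iHepSC level lay under the array median, and its other probe sets gave smaller differences, so that its place in the order of the 10 genes is not settled.

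The other 3 Fscn1 probe sets did not separate iHepSCs from pHep, and they read lower on MEF replicate 1. Probe set 1448378_at was at 8.76 and 9.01 in iHepSCs, 8.42 in pHep and 10.10 to 11.13 in MEF. It was lower by -1.77 in iHepSCs (adjusted p = 0.00633, and 0.0738 without iHepSC replicate 2) and by -2.24 in pHep (adjusted p = 0.00641). Probe set 1416515_at was at 4.98 and 5.14 in iHepSCs, 5.39 in pHep and 7.39, 9.94, 9.66 and 9.96 in MEF. Its call in iHepSCs (-4.18, adjusted p = 0.0111) was lost without iHepSC replicate 1 (adjusted p = 0.0844) or 2 (adjusted p = 0.0989). Its call in pHep (-3.85, adjusted p = 0.0329) was lost without MEF replicate 2 (adjusted p = 0.0739), 3 (adjusted p = 0.0798) or 4 (adjusted p = 0.0738) or either iHepSC replicate (adjusted p = 0.0737 for both). Probe set 1416516_at was at 6.25 and 6.33 in iHepSCs, 6.00 in pHep and 6.73, 9.10, 8.82 and 9.13 in MEF. Its differences from MEF, -2.16 in iHepSCs and -2.44 in pHep, did not pass (adjusted p = 0.0814 and 0.0977), but did without MEF replicate 1 (-2.73, adjusted p = 1.67e-06, and -3.02, adjusted p = 3.92e-06). When all probe sets of Fscn1 were averaged, the difference between iHepSCs and pHep was -1.27 (adjusted p = 0.251).

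**Figure D3:**
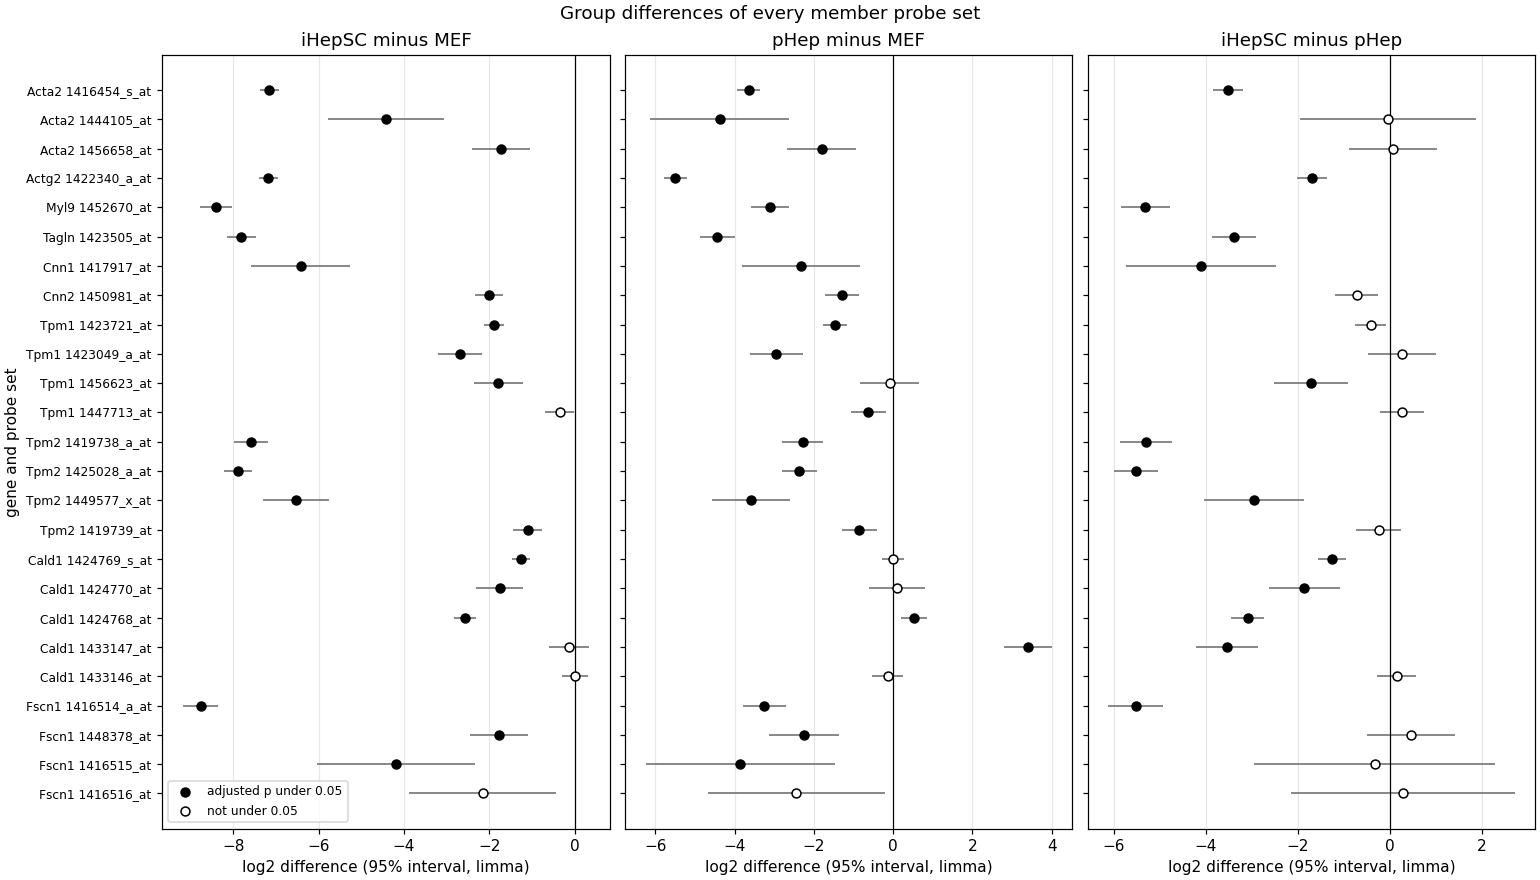
Log2 difference (x axis) with its 95% interval from limma for each of the 25 probe sets (rows) in 3 comparisons, with filled points where the adjusted p was under 0.05. The 21 called points of iHepSC minus MEF all lie left of 0, and in pHep minus MEF the 2 called points right of 0 are Cald1 probe sets.

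Between passages the levels hardly moved. P20 minus P3 lay between -0.54 (Tpm2, 1419738_a_at) and 0.18 (Acta2, 1456658_at) over the 25 probe sets, and 0 were past 2-fold in either direction, as were 0.255% of all probe sets lower and 0.173% higher. P20 was the lower array for 17 of the 25, against 47.7% of all probe sets. With 1 array a passage there is no test.

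Other gene lists are read against the shares of all genes called, which were 12.5% lower and 17.0% higher in iHepSCs and 15.2% lower and 14.6% higher in pHep. The iHepSCs were lower in other contractile genes too, with a smaller median. Of 11 other smooth muscle contractile genes, iHepSCs were lower than MEF in 11 and higher in 0, with a median of -1.71, and 7 and 0 were so in pHep, with a median of -1.32. Both lower counts stood above the 12.5% and 15.2% of all genes. The median over all genes was 0.01 and -0.13. The count in iHepSCs was 7 after centring on Gapdh and 6 with MEF replicates 2 to 4 averaged as 1 sample, and the count in pHep was 11 without MEF replicate 1. The largest fall in both was Acta1, the skeletal muscle actin, at 7.81 and 7.93 in iHepSCs, 8.60 in pHep and 12.89 ± 0.28 (SD, n = 4) in MEF. Its differences were -5.02 (adjusted p = 1.95e-05) and -4.28 (adjusted p = 0.000119).

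Cytoplasmic relatives of the contractile genes, which most cells use, were mostly not called, and Myh10, a myosin heavy chain, fell far. Of 11 such genes 4 were lower and 1 higher in iHepSCs (median -0.34), and 2 were lower and 1 higher in pHep (median -0.19). The shares of all genes were 12.5% and 17.0% in iHepSCs and 15.2% and 14.6% in pHep. The pHep counts and the higher count in iHepSCs were near them, and the lower count in iHepSCs stood above its share. The first median turned to 0.15 after centring on Gapdh. Without either iHepSC replicate 2 were lower and 0 higher, and without MEF replicate 1 the lower counts were 7 in iHepSCs and 4 in pHep. Actb, the cytoplasmic β-actin, was at 14.66 and 14.76 in iHepSCs, 14.84 in pHep and 14.97 ± 0.07 (SD, n = 4) in MEF. It did not pass in any comparison of the main model. In iHepSCs it passed as lower than in MEF without MEF replicate 1 (-0.30, adjusted p = 0.0204) and with trend and robust fitting (-0.26, adjusted p = 0.0476). Myh9, a further myosin heavy chain, was lower in iHepSCs than in MEF by -2.30, which did not pass (adjusted p = 0.051). It did without MEF replicate 1 (-2.82, adjusted p = 9.83e-07) and after centring on Gapdh (-1.81, adjusted p = 0.0244). Myh10, the heavy chain of non-muscle myosin IIB, was at 4.77 and 5.32 in iHepSCs, 12.15 in pHep and 12.24 ± 0.54 (SD, n = 4) in MEF. iHepSCs differed from MEF by -7.19 (adjusted p = 5.78e-05) and from pHep by -7.11 (adjusted p = 0.000437), while pHep and MEF differed by -0.08 (adjusted p = 0.912). Myl12b, a non-muscle regulatory light chain, ran the other way from Myl9, at 13.59 on both iHepSC arrays, 14.08 in pHep and 11.79 ± 0.42 (SD, n = 4) in MEF. Its difference of 1.80 in iHepSCs (adjusted p = 0.00489) did not pass without iHepSC replicate 1 (adjusted p = 0.0515) or 2 (adjusted p = 0.0539), and that in pHep was 2.30 (adjusted p = 0.00488). Myl12a, a further light chain gene of this list, did not rise. It was lower in iHepSCs by -0.49 (adjusted p = 0.00991, and 0.997 after centring on Gapdh) and did not pass in pHep (-0.19, adjusted p = 0.258). Tpm4, a short tropomyosin, was the largest fall in pHep (-1.31, adjusted p = 0.00563).

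Among genes of stress fibres and focal adhesions, 8 of 13 were lower and 0 higher in iHepSCs (median -1.34), and 4 were lower and 1 higher in pHep (median -0.47). Over all genes 12.5% were lower in iHepSCs and 15.2% in pHep. Without MEF replicate 1, 2 were higher in iHepSCs, and 7 were lower and 3 higher in pHep. Palld, the stress fibre protein palladin, had the largest fall in iHepSCs (-3.38, adjusted p = 0.000940). Nexn, the filament binder nexilin, had the largest fall in pHep (-3.54, adjusted p = 0.000237), and Pxn, the adhesion protein paxillin, was the gene that was higher there (1.63, adjusted p = 0.000806).

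The epithelial microvillus and bundling genes were more often higher than lower in iHepSCs. Of 13 such genes, 7 were higher and 2 lower in iHepSCs (median 1.76), and 5 were higher and 3 lower in pHep (median 0.23). Of all genes 17.0% were higher and 12.5% lower in iHepSCs, and 14.6% were higher and 15.2% lower in pHep, so that the lower count in iHepSCs was near that of all genes. The lower count in iHepSCs was 4 without MEF replicate 1, 1 without MEF replicate 2 or 4 and 0 without MEF replicate 3 or either iHepSC replicate, and the higher count in pHep was 3 without MEF replicate 2, 3 or 4 or either iHepSC replicate. Vil1, the microvillus bundler villin, was at 10.35 and 10.09 in iHepSCs, 10.03 in pHep and 4.80 ± 0.52 (SD, n = 4) in MEF, a difference of 5.43 (adjusted p = 0.000129) and 5.23 (adjusted p = 0.000472). The largest falls were Msn (moesin, a linker of actin to the membrane) in iHepSCs, by -0.74 (adjusted p = 0.0337), and Eps8, a capping and bundling protein, in pHep, by -3.94 (adjusted p = 0.000111). The Msn call was lost without MEF replicate 2, 3 or 4 (adjusted p = 0.0563, 0.0656 and 0.0789) or iHepSC replicate 1 or 2 (adjusted p = 0.178 and 0.179).

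**Figure D4:**
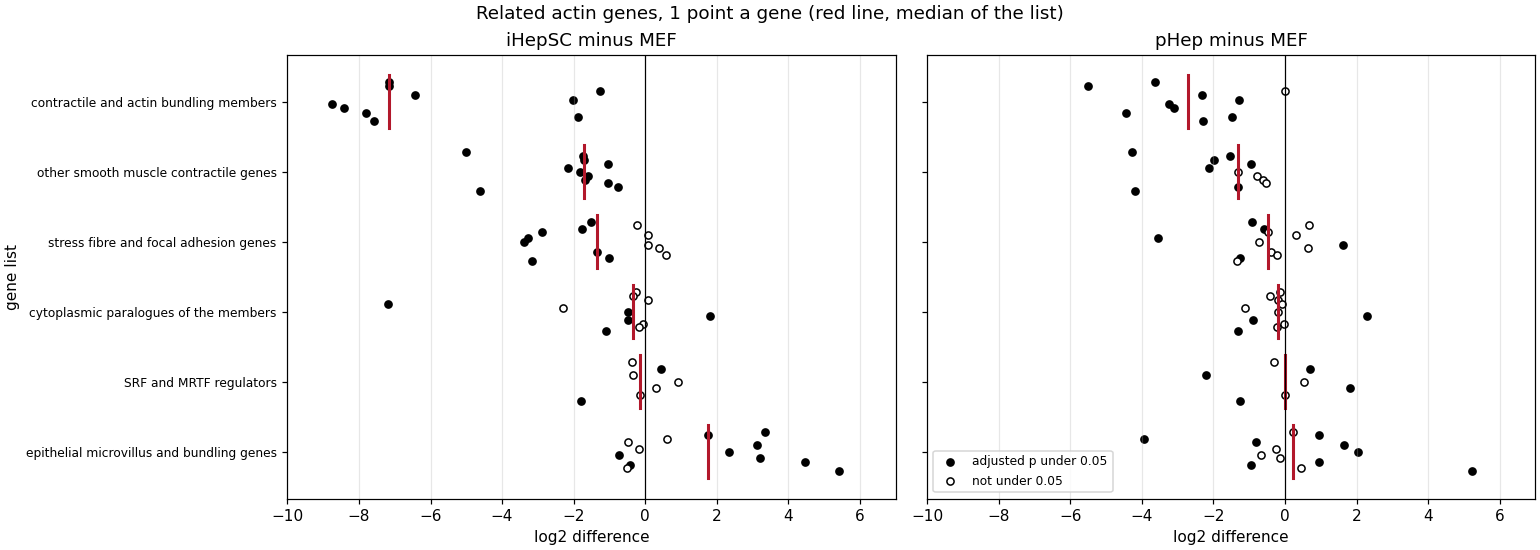
Log2 difference from MEF (x axis) for iHepSC on the left and pHep on the right, 1 point a gene in 6 gene lists (rows), filled where the adjusted p was under 0.05, with a red line at the median of each list. The medians of the 10 contractile and bundling genes are -7.16 and -2.71, and those of the epithelial microvillus and bundling genes are 1.76 and 0.23.

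Of the transcriptional regulators of these genes, Srf was lower in iHepSCs and pHep, and myocardin and its relatives were not called lower in either. Srf was at 8.58 and 8.38 in iHepSCs, 9.01 in pHep and 10.26 ± 0.25 (SD, n = 4) in MEF, with differences of -1.78 (adjusted p = 0.000999) and -1.25 (adjusted p = 0.0105, and 0.0877 with MEF replicates 2 to 4 averaged). Myocd, the muscle coactivator myocardin, was at 5.32 and 4.91 in iHepSCs, 5.25 in pHep and 5.26 ± 0.32 (SD, n = 4) in MEF, below the array median in each. Mrtfa, a coactivator that free actin monomers hold in the cytoplasm, differed by 0.91 in iHepSCs (adjusted p = 0.260) and 0.53 in pHep (adjusted p = 0.574), and both passed as higher without MEF replicate 1 (adjusted p = 3.78e-05 and 0.000756). Mrtfb, its relative, differed by 0.30 in iHepSCs (adjusted p = 0.619, and 0.00577 without MEF replicate 1). In pHep it was higher by 1.80 (adjusted p = 0.0367), a call lost without MEF replicate 2, 3 or 4 (adjusted p = 0.0810, 0.0811 and 0.0859) or either iHepSC replicate (adjusted p = 0.0752 for both). Elk4, a partner of SRF, was higher by 0.44 in iHepSCs (adjusted p = 0.0394), which was lost without each array in turn but MEF replicate 1 (adjusted p between 0.102 and 0.246). Fhl2, an SRF cofactor, was lower in pHep (-2.20, adjusted p = 0.00154). In all, 1 of the 7 regulators was lower and 1 higher in iHepSCs (median -0.15), and 2 were lower and 2 higher in pHep (median -0.01). With 12.5% lower and 17.0% higher among all genes in iHepSCs and 15.2% and 14.6% in pHep, about 1 of 7 either way is the background, and these counts are no result about the list. The higher count in iHepSCs was 3 without MEF replicate 1 and 0 without any other array, and that in pHep was 1 without any 1 of the arrays other than MEF replicate 1.

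Fibroblast and smooth muscle markers were lower than in MEF along with the contractile genes, whereas stellate, macrophage and endothelial markers were mostly not. The part of any of these cells in the results was not tested. The same shares of all genes (12.5% lower and 17.0% higher in iHepSCs, 15.2% and 14.6% in pHep) stand beside each count. iHepSCs were lower than MEF in all 7 fibroblast markers and pHep in 5, not in Dcn and Lum. Their mean log2 levels were 6.06 to 6.09 in iHepSCs, 7.81 in pHep and 11.57 to 12.65 in MEF. Dcn differed least from MEF, at 9.33 and 9.74 in iHepSCs, 9.53 in pHep and 10.46 ± 0.28 (SD, n = 4) in MEF. In iHepSCs the Dcn and Lum calls were lost without MEF replicate 2 (adjusted p = 0.066 and 0.088), 3 (0.062 and 0.084) or 4 (0.052 and 0.073). The Dcn call was also lost after centring on Gapdh (-0.44, adjusted p = 0.255). With all arrays the differences were -0.93 in Dcn and -4.05 in Lum. They were -1.13 and -4.11 without iHepSC replicate 1, and -0.72 and -3.99 without iHepSC replicate 2. Both genes were called lower on pHep without MEF replicate 1. Col1a1, a fibrillar collagen, was at 6.34 and 6.44 in iHepSCs, 8.55 in pHep and 13.24 ± 0.49 (SD, n = 4) in MEF. Thy1 was at 5.10 and 4.84 in iHepSCs, 5.04 in pHep and 12.22 ± 0.57 in MEF. Between iHepSCs and pHep, 3 of the 7 were lower in iHepSCs and 0 higher, against 7.77% and 9.15% of all genes. They were Col1a1 (-2.16, adjusted p = 0.0223, and 0.0943 after centring on Gapdh), Col1a2 (-3.79, adjusted p = 0.00157) and Pdgfrb (-5.42, adjusted p = 0.000690). Col1a2 was at 6.60 and 6.77 in iHepSCs, 10.47 in pHep and 14.28 in MEF. Pdgfrb was at 3.52 and 3.30 in iHepSCs, 8.83 in pHep and 11.89 in MEF. On bulk arrays, fewer cells of a type and less RNA per cell cannot be told apart. Of 6 macrophage and Kupffer cell markers 0 were lower and 3 higher on pHep than in MEF, with mean levels of 5.75 to 5.78 in iHepSCs, 9.05 in pHep and 6.47 to 7.31 in MEF. In iHepSCs 1 of these markers was lower than in MEF and 0 higher, and 5 were lower than on pHep, against 7.77% of all genes. Adgre1 and Cd68 lost the latter call after centring on Gapdh (adjusted p = 0.159 and 0.0577). Without MEF replicate 1, Cd68, C1qa and C1qb were also lower in iHepSCs than in MEF. C1qb had the largest rise, at 11.05 on pHep, 4.70 and 4.81 in iHepSCs and 6.27 ± 0.79 (SD, n = 4) in MEF. C1qa was at 11.08 on pHep, 5.60 and 5.34 in iHepSCs and 7.33 ± 0.99 in MEF. Marco, a scavenger receptor, was at 9.24 on pHep and 5.15 ± 0.11 in MEF. Clec4f, a defining marker of Kupffer cells, was at 6.08, below the array median. Of 7 hepatic stellate cell markers, 2 were lower and 1, Reln, higher on pHep than in MEF (1.53, adjusted p = 0.00536), and Lrat, the defining one, was near the floor on all arrays (3.70 and 3.88 in iHepSCs, 4.19 in pHep, 4.07 in MEF). These counts are near the shares of all genes, and they were 1 and 1 without MEF replicate 2, 3 or 4 or either iHepSC replicate. In iHepSCs 1 stellate marker was lower and 0 higher. The mean stellate level was 6.00 to 6.26 in iHepSCs, 6.42 in pHep and 6.17 to 6.76 in MEF. Of 6 smooth muscle markers, 5 of which are also among the other contractile genes, 5 were lower in iHepSCs and 3 on pHep, and those counts were, in iHepSCs, 2 without iHepSC replicate 1, 3 without iHepSC replicate 2 and 1 after centring on Gapdh and, on pHep, 5 without MEF replicate 1. Their mean levels were 6.17 to 6.22 in iHepSCs, 6.33 in pHep and 7.25 to 7.59 in MEF. Of 5 endothelial markers 2 were higher and 0 lower in iHepSCs (Cdh5 by 3.10 and Tek by 2.20), and 0 were higher and 1 lower on pHep, a call lost without any 1 array other than MEF replicate 1.

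The labels were set beside hepatocyte markers and the factors used. Alb was at 14.39 and 13.74 in iHepSCs, 15.13 in pHep and 5.59 ± 0.23 (SD, n = 4) in MEF. Of 6 hepatocyte markers measured, iHepSCs exceeded MEF in 4 and pHep did in 5, against 17.0% and 14.6% of all genes. Cps1, among the 4, was at 5.98 and 5.67 in iHepSCs, below the array median, 12.74 in pHep and 5.11 ± 0.23 in MEF. Its iHepSC call was lost without MEF replicate 2 or 3 (adjusted p = 0.092 and 0.097). Its difference of 0.71 between iHepSCs and MEF was 0.87 without iHepSC replicate 1 and 0.56 without iHepSC replicate 2. Tat was at 6.43 and 6.16 in iHepSCs, 11.30 in pHep and 6.34 ± 0.23 in MEF. iHepSCs differed from pHep by -6.91 in Cps1 and -5.01 in Tat. Cyp2e1, an enzyme of mature hepatocytes, was low in every group, pHep (5.11) included. Hnf4a was at 11.88 and 12.07 in iHepSCs, 13.42 in pHep and 7.46 ± 0.06 (SD, n = 4) in MEF. Pou5f1, which encodes Oct4, was between 5.04 and 5.20 in iHepSCs, 5.05 in pHep and 5.06 ± 0.13 (SD, n = 4) in MEF. The study reported the introduced Oct4 and Hnf4α as silent at both passages, so the Pou5f1 level is no check of the labels. MEF replicate 1 stood apart from the other MEF arrays, with a correlation of 0.960 to 0.961 with them over all probe sets, against 0.997 among replicates 2 to 4. It was the highest MEF array for 14 of the 25 member probe sets and the lowest for 10, as it was for 39.5% and 34.3% of all probe sets. Without it, all 10 genes still passed as lower in iHepSCs by their brightest probe set.

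**Figure D5:**
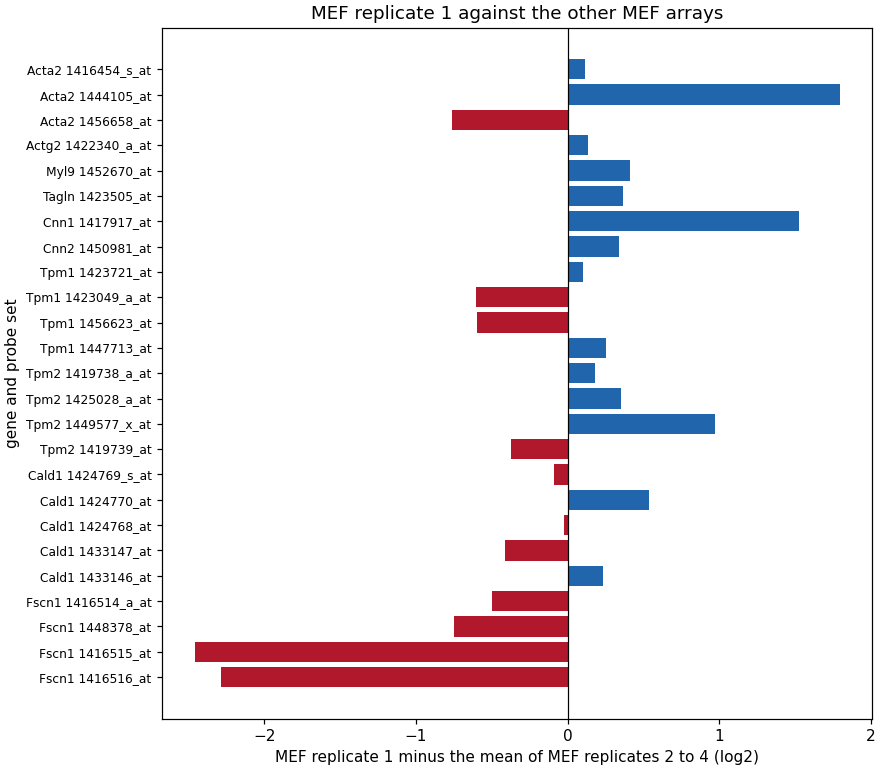
Log2 level of MEF replicate 1 minus the mean of MEF replicates 2 to 4 (x axis) for each of the 25 probe sets (rows), blue where replicate 1 was higher and red where it was lower. Acta2 1444105_at (1.80) and Cnn1 (1.53) reach furthest right, and Fscn1 1416515_at (-2.46) and 1416516_at (-2.29) furthest left.

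The genes whose pattern over the 7 arrays was most like the mean of the 10 contractile and bundling genes were Adgra2, Fstl1, Fst, Col1a2 and Ereg, with Pearson correlations between 0.99825 and 0.99919. They were picked out of 3554 genes with a range of at least 2 on the log2 scale, and the arrays share only 3 kinds of cell, so that any gene ordered MEF, pHep, iHepSC scores high. Fstl1, a secreted glycoprotein, was at 4.42 and 4.12 in iHepSCs, 9.66 in pHep and 13.32 to 13.91 in MEF.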

How the data were processed

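The authors deposited, per array, log2 values of 45101 probe sets made by RMA (background correction, quantile normalization and a summary per probe set). Its version, and whether other arrays were normalized with these, is not given in the sources used here. After removal of 64 control probe sets, gene symbols came from the platform annotation (34945 probe sets with 1 symbol, 932 with several, 9160 with none). All 25 member probe sets had 1 symbol. The number of arrays limits the precision.

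One limma model (limma 3.58.1, R 4.3.3, lmFit and eBayes with default prior) with 3 group means was fitted to all 45037 probe sets without a filter, and p-values received the Benjamini-Hochberg adjustment (threshold 0.05). It had 4 residual degrees of freedom, with 2.06 more from the prior, and was tested on simulated data. List genes were read by their brightest probe set. P20 and P3 were compared without a test. Promoter windows came from RefSeq (GRCm38.p6).

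The text names the 10 genes, and SRF and its coactivators. It names the largest rise and fall past the test in each reported list of actin genes and regulators. The 5 genes of most similar pattern are named too, as are Hnf4a, Pou5f1, Alb and Col1a1. In the lists of cell type markers, genes were not named by the rule of largest rise and fall. Actb, Myh9, Myl12a, Thy1, Dcn, Lum, Pdgfrb, Tat, Cps1, Cyp2e1, Adgre1, Cd68, C1qa, C1qb, Marco, Clec4f, Reln, Lrat, Cdh5 and Tek were added after their values were seen. Members and lists were chosen with earlier results of these data known. Alternatives were other summaries of probe sets, removal of probe sets ending in _x_at or _s_at, a filter on dim ones, other scalings (among them centring on the mean of 3 Gapdh control probe sets), trend and robust fitting, a floor of 2-fold, each replicate left out, MEF replicates 2 to 4 averaged, the replicate number as a block, and the unpaired test of the study's methods. Their effect on other lists and single probe sets was computed after seeing the data. The results of 1 further gene list are not reported here.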

Additional observations from a re-analysis of the deposited data

Results flagged for a closer look

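Among the 4 MEF arrays, the level of 11 of the 25 probe sets on replicate 1 lay far from the other 3, by Dixon's ratio of the gap to the whole range (past its 95% critical value). Chance flags about 1 in 20 such groups, and the 25 probe sets share the same 4 arrays. Over all 45037 probe sets, 21% had a far array by the same ratio, and 17.4% had replicate 1 as the far one. Replicate 1 was the higher in 7 and the lower in 4. It was higher for Myl9 (ratio 0.943, 14.06 against a mean of 13.64 on replicates 2 to 4), Tpm2 1449577_x_at (0.939, 11.88 against 10.91), Tpm2 1419738_a_at (0.938, 14.28 against 14.09), Acta2 1444105_at (0.907, 10.21 against 8.42), Cnn1 (0.906, 12.73 against 11.20), Cnn2 (0.903, 13.50 against 13.16) and Actg2 (0.875, 12.88 against 12.74). It was lower for Tpm1 1423049_a_at (0.899, 13.41 against 14.01) and for Fscn1 1416515_at (0.886, 7.39 against 9.85), 1416516_at (0.869, 6.73 against 9.02) and 1416514_a_at (0.865, 13.69 against 14.19). The calls that change without replicate 1 are given with each gene, and the cause was not tested.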

How the results depend on the processing

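Over the log2 differences of the 10 genes and 3 comparisons, 451 values under the alternatives kept their direction and their side of the threshold, 30 lost the call, 5 gained one and 4 changed sign. The 4 were differences that had not passed: Cald1 between pHep and MEF was -0.0171 with arrays centred on their medians and between -0.0154 (without MEF replicate 1) and 0.0263 as each replicate was left out, with -0.0085 without MEF replicate 2, and Tpm1 between iHepSC and pHep was 0.0504 after centring on Gapdh. Of the 30 lost calls, 16 fell under the replicate block. Some of the 451 values could not change direction, since leaving out an array of the third group keeps a difference as it was. The brightest probe set, the filter on dim ones and trend and robust fitting keep it as well. Centring on Gapdh moved the median of all probe sets by 0.49 in iHepSC against MEF, 0.03 in pHep against MEF and 0.46 in iHepSC against pHep.

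With 1 value a gene, by the highest mean or by the mean of its probe sets, 10 of 10 genes were lower in iHepSC and 9 in pHep than in MEF, and 8 were lower in iHepSC than in pHep. The 8 were not the same genes, since by the mean Fscn1 lost its call (-1.27, adjusted p = 0.251) and Cnn2 gained one (-0.72, adjusted p = 0.0435). The 2 Cald1 probe sets higher in pHep than in MEF became 0 by the probe set with the highest mean, 1 gene by the mean of probe sets (Cald1, 0.78, adjusted p = 0.00565), and 1 probe set after quantile normalization again, on Gapdh, past 2-fold, and with MEF replicates 2 to 4 averaged. Leaving out a replicate gave 1 to 2. Replicate numbers of iHepSC and MEF share only a number (deviations correlated at -0.22 and -0.19). With the replicate block, 12 of the 25 probe sets were lower in iHepSC against MEF, 3 in pHep against MEF and 0 in iHepSC against pHep, and 0 were higher in pHep. The unpaired test of the study's methods called 21 lower and 0 higher in iHepSC against MEF, and 20 lower after Benjamini-Hochberg adjustment. Arrays carry no depth, and signal near the array median limits the low levels.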
